A study of Rattus norvegicus with 10 samples.

Results

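The genes described here are output and repressor genes of the circadian clock: the transcription factors Dbp, Tef and Hlf, the nuclear receptors Nr1d1 and Nr1d2, the period genes Per1, Per2 and Per3, the cryptochrome Cry2 and the repressor Bhlhe41. They were taken by symbol from the deposited transcript table by a rule that uses no measured value, although the list was drawn up with earlier results of these data known. Of the 10 genes, 7 had a row among the 17221 transcripts, in 8 rows, since Nr1d1 had 2 transcripts. Hlf, Nr1d2 and Bhlhe41 were not analysed here. Of the 8 rows, 7 passed the filter on low values, which kept the 10259 transcripts that reached 1 CPM (counts per 1e+06 reads) in both libraries of any 1 of the groups. The row that did not pass was the second Nr1d1 transcript.

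The RNA came from tissue beneath the skin, including muscle, of female Wistar rats in which arthritis had been induced with bovine type II collagen and adjuvant, so that all 5 groups carried the disease and no healthy group is analysed here. RA_0 was taken before therapy, AP_1h and AP_34d at 1 h and 34 days of acupuncture (a needle inserted and twirled at points of the lower back and leg), and PLA_1h and PLA_34d at the same times of placebo, a peritoneal injection of saline, so that needle and injection also differed in site. Each group held 2 libraries, and the tissue was excised at sacrifice under deep general anaesthesia, so that time points are different animals. The age of the rats and the hour of the day of each excision are not given in the sources used here, and a difference in that hour cannot be told apart from the groups.

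The libraries held 5371687 to 8899521 reads, and 1 CPM stood for 4.19 to 10.1 reads. A transcript at 0 could have a level of up to 0.297 to 0.716 CPM (3 reads), by counting error only. PLA_34d replicate 1 stood apart, with a mean Pearson r of 0.906 with the other libraries across transcripts, where the others had 0.936 to 0.954. All 10 skeletal muscle markers listed, such as the creatine kinase Ckm and the actin Acta1, were at 1 CPM or more in every library. In bulk tissue, fewer cells of a type and less RNA per cell cannot be told apart. The level of a transcript was not divided by its length, so levels are compared between groups and not between genes.

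In the mammalian clock, the activators Arntl (also called Bmal1) and Clock bind E-box sequences and switch on the period and cryptochrome genes, whose proteins then hold the activators back. The same activators drive Dbp and Nr1d1. Dbp, Tef and Hlf are related leucine zipper factors that bind D-box sequences, and Nr1d1 (Rev-erb alpha) represses Arntl. Arntl and genes such as Dbp and Nr1d1 peak at roughly opposite times of day in most tissues. Skeletal muscle has such a clock of its own, which is known to act on the genes of fuel use.

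The starts of these genes are shown because E-boxes and D-boxes are the sequences through which they are known to be driven. RefSeq windows of assembly GRCr8, from 250 bases before to 50 after each start, were searched on both strands for CACGTG (the E-box), CACGTT (a second form of the E-box), TTATGTAA and TTACGTAA (D-boxes), AGGTCA (the core site that Nr1d1 and the ROR receptors bind) and TGACGTCA (the cAMP response element). The 7 measured genes had 8 windows, with 2 for Nr1d1. The stretches around the matches follow, 5′ to 3′ on the strand of the gene, with the match in capitals (AACGTG is CACGTT read on the other strand).
Cry2, chr3:98860614-98860679, minus strand: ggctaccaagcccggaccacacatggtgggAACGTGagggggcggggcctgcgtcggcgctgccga
Tef, chr7:115206599-115206664, plus strand: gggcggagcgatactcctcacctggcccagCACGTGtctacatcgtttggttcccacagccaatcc
Per2, chr9:99497020-99497215, minus strand: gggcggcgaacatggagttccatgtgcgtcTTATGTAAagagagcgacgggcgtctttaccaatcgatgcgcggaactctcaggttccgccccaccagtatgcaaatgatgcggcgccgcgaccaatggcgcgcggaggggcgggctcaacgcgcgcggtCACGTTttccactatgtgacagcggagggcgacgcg
Nr1d1, first start, chr10:84231951-84232016, minus strand: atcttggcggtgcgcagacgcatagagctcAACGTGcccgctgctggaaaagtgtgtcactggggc
Nr1d1, second start, chr10:84229610-84229675, minus strand: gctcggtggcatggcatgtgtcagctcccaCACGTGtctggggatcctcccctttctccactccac

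The E-box CACGTG was found in the window of Tef, where the match begins 198 bases before the start, and in the second window of Nr1d1, 191 bases before it. It stood in 6.42% of all 33469 rat windows. The form CACGTT was found in Cry2, Per2 and the first window of Nr1d1, against 4.83% of all windows. Per2 also held the D-box TTATGTAA, present in 0.893% of all windows. TTACGTAA, AGGTCA and TGACGTCA were in none of the 8 windows (0.12%, 16.2% and 1.83% of all windows), and the windows of Dbp, Per1 and Per3 held none of the 6 motifs. These matches are a description of the letters in short windows, and binding was not measured.

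Across the 10 libraries Dbp, an activator of D-box genes, varied most among the 7 genes, with 7.28 times as much in the highest library as in the lowest. It was high before therapy and lower in every library afterwards. Dbp (NM_012543, rn4 chromosome 1, 96173573 to 96178485, plus strand) stood at 426 and 418 CPM in RA_0, at 167 and 81.3 CPM in AP_1h, at 137 and 181 CPM in PLA_1h, at 58.6 and 143 CPM in AP_34d, and at 249 and 295 CPM in PLA_34d. Both RA_0 libraries were above all 8 later ones, and both PLA_34d libraries were above the other 6, among which the groups overlapped. The order of the group means was RA_0, PLA_34d, PLA_1h, AP_1h, AP_34d. The 2 libraries of AP_34d differed 2.44-fold from each other, the widest gap of Dbp within a group.

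Tef, a close relative of Dbp that binds the same sequence, showed none of this order. Tef (NM_019194, chromosome 7, 120164881 to 120179984, plus strand) stood at 319 and 455 CPM in RA_0, at 352 and 401 CPM in AP_1h, at 308 and 432 CPM in PLA_1h, at 231 and 541 CPM in AP_34d, and at 316 and 452 CPM in PLA_34d. Each group overlapped every other one. Its group means lay within 1.05-fold of each other, and its lowest and its highest library belonged to the same group, AP_34d. Over the 8 comparisons of a pair of groups, the log2 differences of Tef ran from -0.11 to 0.05, with a standard error of 0.45.

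Nr1d1, the repressor of Arntl, had an order of its own, lowest in AP_1h and in PLA_34d. Its main transcript (NM_001113422, chromosome 10, 87541246 to 87548186, minus strand) stood at 33.2 and 29.6 CPM in RA_0, at 13.7 and 9.24 CPM in AP_1h, at 23.2 and 21.6 CPM in PLA_1h, at 25.8 and 21.1 CPM in AP_34d, and at 15.6 and 11.4 CPM in PLA_34d. The 2 RA_0 libraries were the highest of all, AP_34d and PLA_1h overlapped below them, and both of these lay above PLA_34d and AP_1h, which overlapped each other. This transcript shares 1061 bases with Thra on the opposite strand, and strand use in the counting is not stated, so its values are uncertain. It also shares 4856 bases with the second Nr1d1 transcript (NM_145775), whose whole span lies inside it and which stood at 0 to 1.19 CPM. The counting drops reads that fit both transcripts, so neither value is the full level of the gene.

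The period genes, whose proteins form the repressive complex with the cryptochromes, differed more between the 2 libraries of some groups than between group means. Per1 (NM_001034125, chromosome 10, 55859851 to 55868747, plus strand) stood at 116 and 140 CPM in RA_0, at 142 and 42.1 CPM in AP_1h, at 48.3 and 68.6 CPM in PLA_1h, at 96.9 and 96.3 CPM in AP_34d, and at 96.7 and 124 CPM in PLA_34d. The widest gap was inside AP_1h, whose 2 libraries were the highest and the lowest of the 10, 3.36-fold apart. No neighbours in the order of the Per1 group means were separated.

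Per2 (NM_031678, chromosome 9, 90645342 to 90687509, minus strand) stood at 57.7 and 88.4 CPM in RA_0, at 81.3 and 53.7 CPM in AP_1h, at 36.2 and 45.5 CPM in PLA_1h, at 22.5 and 69.8 CPM in AP_34d, and at 68.7 and 68.4 CPM in PLA_34d. PLA_1h lay below RA_0, AP_1h and PLA_34d without overlap, while the 2 AP_34d libraries spanned it from both sides. Per3 (NM_023978, chromosome 5, 168152693 to 168187442, minus strand) stood at 27.7 and 61.5 CPM in RA_0, at 37.7 and 37.1 CPM in AP_1h, at 40.9 and 25.1 CPM in PLA_1h, at 17.4 and 53.5 CPM in AP_34d, and at 67.9 and 69.7 CPM in PLA_34d. PLA_34d held the 2 highest values of Per3, and the other groups overlapped one another. For both genes the 2 libraries of AP_34d were farther apart than those of any other group, 3.11-fold for Per2 and 3.08-fold for Per3.

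Cry2, the cryptochrome partner of the period proteins, differed little between groups. Cry2 (NM_133405, chromosome 3, 76802782 to 76830902, minus strand) stood at 30.5 and 39.4 CPM in RA_0, at 30.1 and 16.9 CPM in AP_1h, at 20.4 and 36.2 CPM in PLA_1h, at 28.1 and 43.9 CPM in AP_34d, and at 40.7 and 35.7 CPM in PLA_34d. Only AP_1h lay below RA_0 and PLA_34d without overlap, and no neighbours in the order of its means were separated. The gap of AP_1h from RA_0, 30.1 against 30.5 CPM (278 and 128 reads), lay within counting error.

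**Figure D1:**
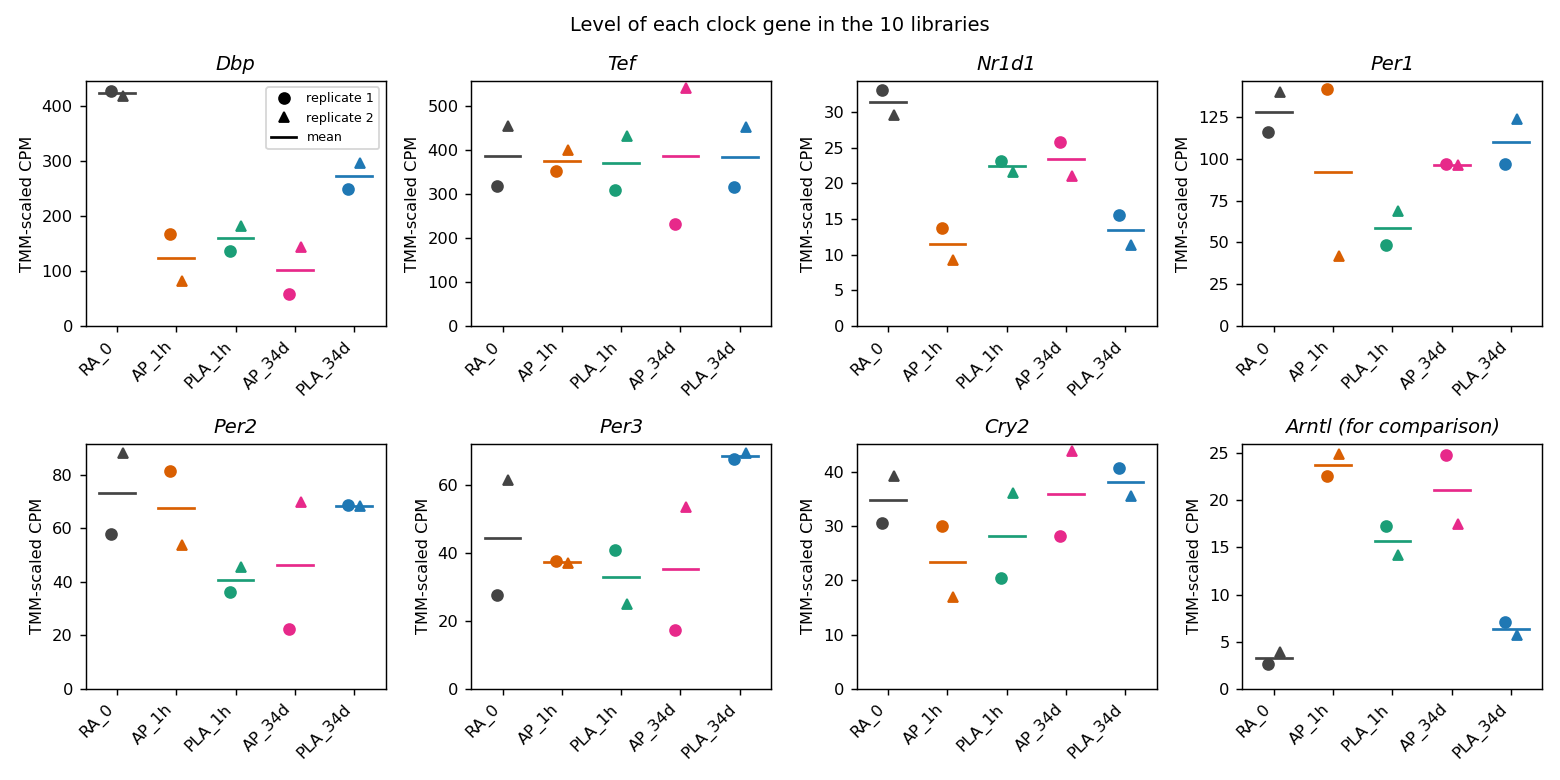
TMM-scaled CPM (vertical axes, linear from 0) of the 7 clock genes and, for comparison, Arntl in the 10 libraries by group; circles are replicate 1, triangles replicate 2 and bars the mean of the 2. Dbp and Nr1d1 are highest in both RA_0 libraries, Tef has group means of 370 to 387 CPM, and Arntl runs opposite to Dbp.

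Differences were tested with limma on log2(CPM + 1) over all transcripts that passed the filter, with Benjamini-Hochberg adjusted p under 0.05 as a call. A log2 difference on this scale understates the change of low transcripts. limma called 0 of the 7 genes in each of the 8 comparisons of a pair of groups, in the mean of the 4 therapy groups against RA_0, in the difference between both acupuncture contrasts and in the F test over the 5 groups. limma-voom and edgeR's quasi-likelihood test on the reads recovered from the table also called 0 of the 7 in each. DESeq2, which called more transcripts of the whole table in each comparison, called Dbp and Nr1d1 in some, as given beside them. Where a DESeq2 adjusted p is given below for 1 of the 7 genes, it was the lowest over the alternatives tried for that difference, and the highest lay between 0.795 and 1. With 2 libraries against 2, the smallest p of an exact permutation test is 0.333, so none was run gene by gene.

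Over the 5 groups together, Dbp had an unadjusted p of 0.00462 and Nr1d1 one of 0.00653 in limma's F test, both with an adjusted p of 0.666. An unadjusted p under 0.05 was reached by 4.98% of all transcripts, and by these 2 of the 7 genes. DESeq2 gave an adjusted p of 0.00298 for Dbp and 0.043 for Nr1d1, where it called 2.48% of all transcripts. limma called 0% in the F test, but some transcripts, none of the 7 genes, when PLA_34d was replicate 1 alone, the library that stood apart. The other 5 genes had unadjusted p from 0.228 for Per1 to 0.9992 for Tef.

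The comparison with the animals before therapy asked what differed after the start of acupuncture or placebo. No arthritic group without either therapy was analysed here at the later times. Elapsed time, age and the course of the arthritis therefore cannot be told apart from the therapy. The 4 comparisons share the 2 RA_0 libraries, so they are not independent of each other. At 1 h of acupuncture all 7 genes were below RA_0, as were 49.9% of all transcripts, with a median log2 difference of -0.60 against 0.00 over all transcripts. Tef (-0.02 ± 0.45 SE), Per2 (-0.11 ± 0.48 SE) and Per3 (-0.14 ± 0.52 SE) differed little. Their signs and that of Per1 changed over the alternatives. The median was -0.13 without AP_1h replicate 2 and -0.99 without AP_1h replicate 1. The libraries did not overlap for Dbp, Nr1d1 and Cry2, against 21% of all transcripts that were lower without overlap. For Cry2 the gap, 30.1 against 30.5 CPM, lay within counting error. Nr1d1 was lower by a log2 difference of -1.40 ± 0.31 (SE; unadjusted p 0.00123, limma adjusted p 0.233), and Dbp by -1.85 ± 0.46 (unadjusted p 0.00254, limma adjusted p 0.241). limma called 0.0292% of all transcripts, and 8.89% had an unadjusted p under 0.05. DESeq2 called both genes, with an adjusted p of 0.0207 for Nr1d1 and 0.022 for Dbp, and 1.62% of all transcripts.

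At 1 h of placebo all 7 genes were again below RA_0, as were 50.6% of all transcripts, with a median of -0.47 against -0.01. The signs of Tef (-0.06 ± 0.45), Per3 (-0.36 ± 0.52) and Cry2 (-0.34 ± 0.39) changed over the alternatives. The median was -0.92 without RA_0 replicate 1 and -0.74 without PLA_1h replicate 2. The libraries did not overlap for 4 of the 7, namely Dbp, Nr1d1, Per1 and Per2, against 13.6% of all transcripts that were lower without overlap. Dbp was lower by -1.42 ± 0.46 (unadjusted p 0.012, limma adjusted p 0.9997) and Per1 by -1.13 ± 0.48 (unadjusted p 0.0406, limma adjusted p 0.9997). An unadjusted p under 0.05 was reached by 2.59% of all transcripts. DESeq2 called none of the 7 and 0.0975% of all transcripts, and limma called 0%.

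At 34 days of acupuncture 6 of the 7 genes were below RA_0, as were 50.7% of all transcripts, with a median of -0.41 against -0.01. The signs of Tef and Per3 changed over the alternatives. The median rested on AP_34d replicate 1, without which it was -0.03, was -0.26 without RA_0 replicate 2, and reached -0.72 without AP_34d replicate 2. Cry2 differed by 0.02 ± 0.39. Dbp differed by -2.19 ± 0.46 (95% interval -3.22 to -1.16, unadjusted p 0.000786, limma adjusted p 0.515, DESeq2 adjusted p 0.00892). Without AP_34d replicate 1 the difference of Dbp was -1.55, and without replicate 2 it was -2.83. Nr1d1 differed by -0.41 ± 0.31, with an interval from -1.11 to 0.29. Libraries did not overlap for 3 of the 7, Dbp, Nr1d1 and Per1, against 15.9% of all transcripts. limma called 0% of all transcripts, 4.77% had an unadjusted p under 0.05, and DESeq2 called 0.349%.

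At 34 days of placebo the 7 genes lay on both sides of RA_0, 5 lower and 2 higher, where 51% of all transcripts were lower, with a median of -0.06 against -0.01. The sign of this median was not stable, at -0.35 without RA_0 replicate 1 and 0.24 without RA_0 replicate 2, and it was -0.27 when PLA_34d replicate 2 was left out. Nr1d1 was lower by -1.17 ± 0.31 (unadjusted p 0.00384, limma adjusted p 0.914, DESeq2 adjusted p 0.191), and by -1.38 without PLA_34d replicate 1, the library that stood apart. It had the fifth smallest p of all transcripts in this comparison. Dbp differed by -0.64 ± 0.46, with an interval from -1.67 to 0.40, although its libraries did not overlap. Per3 was the one gene above RA_0 without overlap, by 0.72 ± 0.52. The 2 genes lower without overlap stood against 14.2% of all transcripts, and the 1 higher against 16.8%. limma called 0%, 3.2% had an unadjusted p under 0.05, and DESeq2 called 0.37%. With PLA_34d replicate 1 alone, limma called some transcripts, none of the 7 genes among them.

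Against RA_0, the mean of the 4 therapy groups was lower by -1.52 ± 0.37 for Dbp (unadjusted p 0.00193, limma adjusted p 0.891, DESeq2 adjusted p 0.0416) and by -0.86 ± 0.25 for Nr1d1 (unadjusted p 0.00598, limma adjusted p 0.891, DESeq2 adjusted p 0.296). These 2 of the 7 genes were lower in all 8 later libraries than in both RA_0 libraries, as were 2.19% of all transcripts. All 7 means were below RA_0, against 50% of all transcripts, but the signs of Tef and Per3 (-0.05 ± 0.41) changed over the alternatives. limma called 0% of all transcripts, 4.9% had an unadjusted p under 0.05, and DESeq2 called 0.236%. For Tef the same mean differed by -0.05 ± 0.35, with an interval from -0.84 to 0.74.

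**Figure D2:**
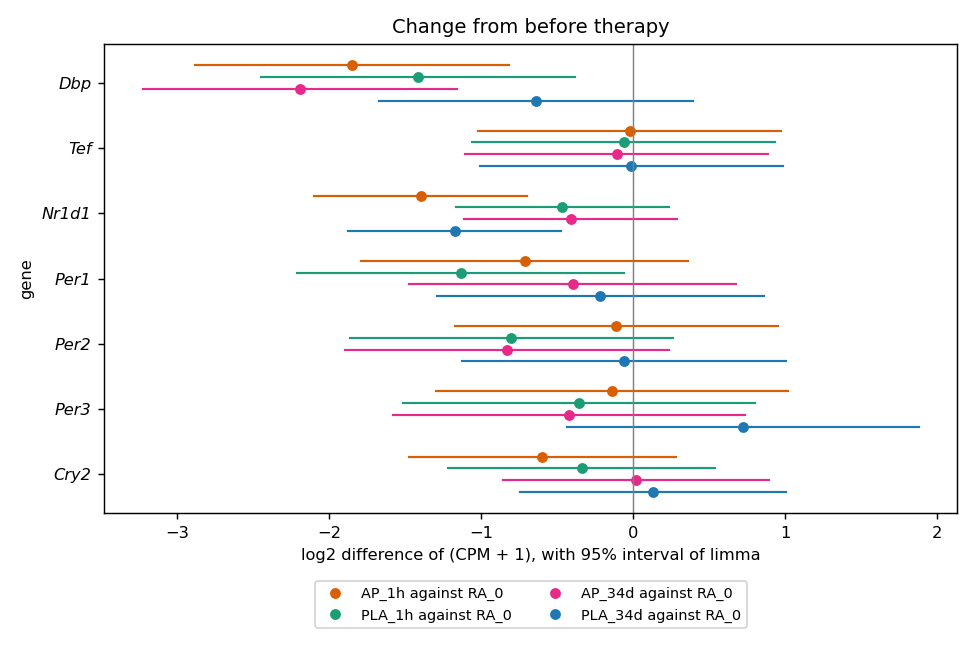
Log2 difference of (CPM + 1) from RA_0 (horizontal axis) for each of the 7 genes in the 4 therapy groups, as points with limma's 95% interval. The 4 points of Dbp are below 0, with intervals below 0 in AP_1h, PLA_1h and AP_34d, those of Nr1d1 are clear of 0 in AP_1h and PLA_34d, and those of Tef stand at 0.

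The comparison of acupuncture with placebo at the same time set needling against injection, as a whole course only at 34 days. The therapies also differed in site and, over the 34 days, in frequency, every other day against weekly. A difference is therefore not particular to the needle. At 1 h, 3 of the 7 genes were lower in AP_1h and 4 higher, where 49.1% of all transcripts were lower, with a median of 0.04 against 0.01, which turned to -0.44 when AP_1h replicate 1 was left out and to -0.20 when PLA_1h replicate 1 was. Nr1d1 was lower in AP_1h by -0.93 ± 0.31 (unadjusted p 0.0143, limma adjusted p 0.869, DESeq2 adjusted p 0.648), without overlap, as were 16.7% of all transcripts. Per2 was the one gene higher without overlap (0.69 ± 0.48), against 13.9% of all transcripts. For Dbp the difference was -0.43 ± 0.46, with an interval from -1.46 to 0.60. limma called 0% of all transcripts, 4.04% had an unadjusted p under 0.05, and DESeq2 called 0.388%.

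At 34 days, Nr1d1 and Dbp stood on opposite sides. Dbp was lower under acupuncture by -1.55 ± 0.46 (unadjusted p 0.00723, limma adjusted p 0.846, DESeq2 adjusted p 0.165), while Nr1d1 was higher by 0.76 ± 0.31 (unadjusted p 0.0356, limma adjusted p 0.856, DESeq2 adjusted p 0.589). In all 6 of the 7 genes were lower, against 49.8% of all transcripts, but Tef, Per2 and Cry2 changed sign over the alternatives. Without PLA_34d replicate 1 the difference was -1.68 for Dbp and 0.97 for Nr1d1, and without AP_34d replicate 1 that of Dbp was -0.92. Per3, lower by -1.14 ± 0.52, had an unadjusted p of 0.0528. Dbp and Per3 were lower without overlap, against 15% of all transcripts, and Nr1d1 higher, against 16%. limma called 0% of all transcripts, 5.47% had an unadjusted p under 0.05, and DESeq2 called 0.848%. With PLA_34d replicate 1 alone, the library that stood apart, limma called some transcripts, none of the 7 genes among them.

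The acupuncture against placebo difference of Nr1d1 at 34 days was above that at 1 h by 1.69 ± 0.45 (unadjusted p 0.0034, limma adjusted p 0.9998, DESeq2 adjusted p 0.201), so the test of this change did not pass. An unadjusted p under 0.05 was reached by 4.05% of all transcripts, limma called 0% (some, none of the 7 genes, with the outlying PLA_34d replicate 1 alone) and DESeq2 0.214%. It was below 0 for 5 of the 7 genes and for 48.2% of all transcripts. For Per2 the same quantity was -1.46 ± 0.68 (unadjusted p 0.0555) and for Dbp -1.13 ± 0.66 (unadjusted p 0.117).

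**Figure D3:**
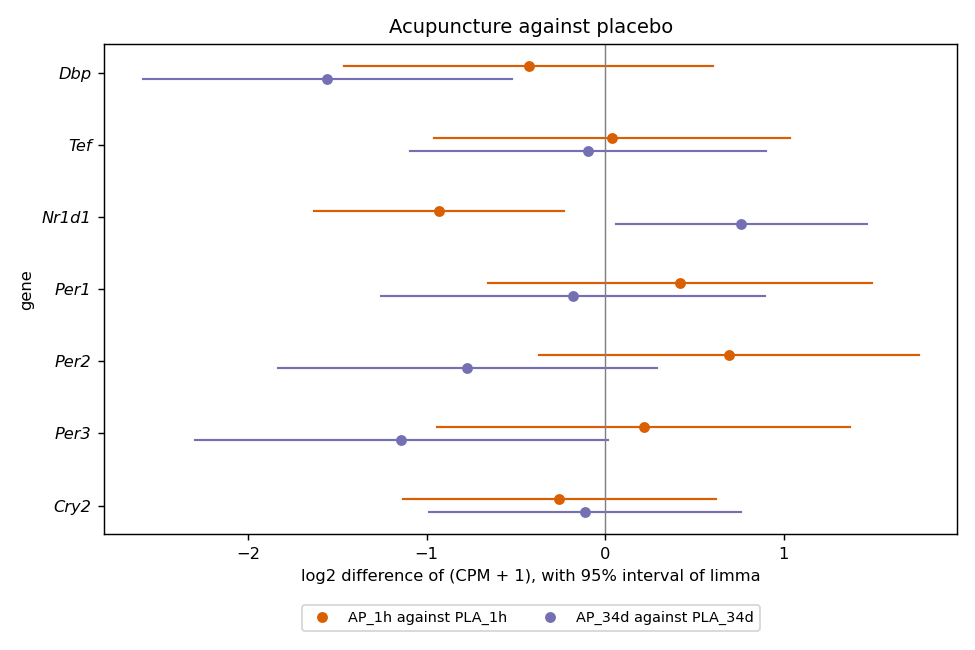
Log2 difference of (CPM + 1) between acupuncture and placebo (horizontal axis) at 1 h and at 34 days for each of the 7 genes, as points with limma's 95% interval. Nr1d1 lies below 0 at 1 h and above 0 at 34 days, and Dbp lies below 0 at 34 days with its interval clear of 0.

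Within each therapy, the later time was set against the earlier one, where age and the course of the arthritis cannot be told apart from continued therapy. Under acupuncture 4 of the 7 genes were lower at 34 days, against 49.3% of all transcripts. Nr1d1 was higher at 34 days than at 1 h by 0.99 ± 0.31 (unadjusted p 0.0105, limma adjusted p 0.651), the one gene of the 7 whose libraries did not overlap, against 17.1% of all transcripts that were higher. limma called 0% there, 5.35% had an unadjusted p under 0.05, and DESeq2 called 0.444%, with none of the 7 among them. Under placebo 6 of the 7 genes were higher at 34 days, with a median of 0.74 against -0.01 over all transcripts, of which 51.1% were lower. Of the 6, Tef (0.05 ± 0.45) changed sign over the alternatives. Nr1d1 was lower by -0.71 ± 0.31 (unadjusted p 0.0484, limma adjusted p 0.9985). Dbp, Per1, Per2 and Per3 were higher without overlap, against 12.7% of all transcripts, and Nr1d1 lower, against 14.4%. The differences of these 4 ran from 0.74 ± 0.48 for Per2 to 1.08 ± 0.52 for Per3, each with an unadjusted p above 0.05. limma called 0% there, 2.96% had an unadjusted p under 0.05, and DESeq2 called 0.341%. With PLA_34d replicate 1 alone, the library that stood apart, limma called some transcripts, none of the 7 genes among them.

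Across the 10 libraries the 7 genes did not follow 1 shared pattern. The libraries fall into 5 groups, and the 2 of a group share that group's differences, so the following correlations of log2(CPM + 1) describe these libraries. Of the 21 pairs of genes 18 had a positive Pearson r, with a median of 0.392 and a range of -0.35 to 0.752. The share over pairs of all transcripts was not computed, so whether this count is unusual was not tested. Per2 and Per3 were most alike (r 0.752), and Dbp and Per2 had r 0.687. The r of 0.719 between Per1 and Cry2 rested on 2 libraries and was -0.189 without the pair farthest from the median of Per1. Nr1d1 had a positive r with 3 of the other 6 genes, the highest being 0.303 with Cry2.

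The transcript that ran most opposite to Dbp over the 10 libraries was Arntl, the activator on the opposite side of the cycle. Arntl (NM_024362) stood at 2.62 and 3.86 CPM in RA_0, at 22.6 and 24.9 CPM in AP_1h, at 17.2 and 14.2 CPM in PLA_1h, at 24.8 and 17.5 CPM in AP_34d, and at 7.07 and 5.69 CPM in PLA_34d. The groups therefore stood in nearly the reverse order of Dbp, with AP_1h and AP_34d exchanged at the end. Pearson's r between Dbp and Arntl over the 10 libraries was -0.921 and Spearman's rho -0.939, and r was -0.933 without the 2 libraries farthest from the median of Dbp and -0.919 without PLA_34d replicate 1. Of 10258 transcripts compared with Dbp, Arntl had the lowest r, where the median was 0.02.

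Within each of the 5 groups, the library with more Dbp was also the one with less Arntl, as was the case for 1.99% of all transcripts. In RA_0 the gap of Dbp (1787 and 2814 reads, 426 and 418 CPM) lay within counting error and Arntl had 11 and 26 reads, so the order there is not settled by these counts. The ratio of Dbp to Arntl CPM was 162 and 108 in RA_0, 7.41 and 3.26 in AP_1h, 7.92 and 12.8 in PLA_1h, 2.36 and 8.19 in AP_34d, and 35.3 and 51.9 in PLA_34d. RA_0 and PLA_34d were thus separated from each other and from the other 3 groups, of which AP_34d overlapped both AP_1h and PLA_1h. Neither level is divided by length, so the ratio can be read between libraries but not as a ratio of molecules. Nr1d1 had an r of -0.39 with Arntl, and the other 5 genes had r from -0.516 for Per1 to -0.166 for Tef.

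**Figure D4:**
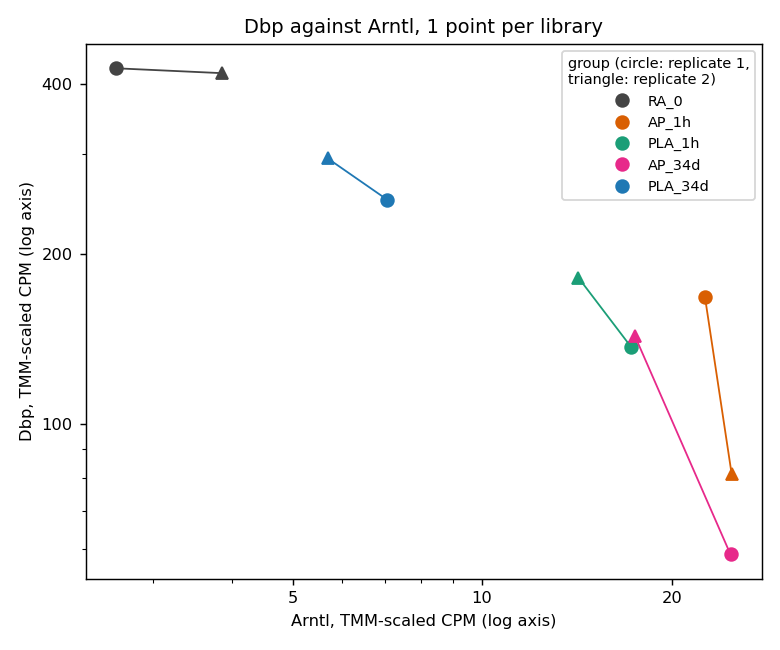
Dbp against Arntl, both in TMM-scaled CPM on log axes, with 1 point per library and a line between the 2 libraries of each group. Each line slopes downward, from RA_0 at the upper left (Dbp 426 and 418 CPM) to AP_34d replicate 1 at the lower right (Dbp 58.6 CPM, Arntl 24.8 CPM).

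Marker levels of other cell types that the tissue holds are given beside these results. The summed CPM of the 6 leukocyte markers was 7.87 to 11.3 in RA_0, 16.7 to 66.6 in AP_1h, 13.7 to 17.1 in PLA_1h, 17.9 to 19.5 in AP_34d and 9.38 to 169 in PLA_34d. RA_0 lay below AP_1h, PLA_1h and AP_34d without overlap and overlapped PLA_34d. Of these 6 markers Cd68 and Lyz2 were at 1 CPM or more in every library, Ptprc was listed at 0 in all 10 and Cd79b in 2. Over the 10 libraries the log2 sum had an r with Dbp of -0.14 for leukocyte, -0.29 for adipocyte, -0.19 for fibroblast and tendon, 0.29 for endothelium and 0.03 for skeletal muscle markers. For keratinocyte markers, of which 2 of 4 were in the table, it was 0.49 at a sum of 1.17 to 5.54 CPM. Of the 6 adipocyte markers 2 were at 1 CPM or more in every library. Fabp4 stood at 115 to 318 CPM, where the adipocyte sum was 133 to 340 CPM. The sums do not show how single markers varied, such as Myh7 (361 to 11934 CPM) and Fmod (4.90 to 199 CPM). The part of these cell types in the results was not tested beyond these values.

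Of the other clock genes, the activators and regulators came with 19 symbols, of which 15 were in the table and 14 were tested, and the clock output genes with 19 symbols, of which 17 were in the table and tested. Both lists were drawn up with earlier results of these data known, so the shares below are a description and no test of the lists. The output list also holds known targets of the glucocorticoid receptor, such as Fkbp5 and Tsc22d3. limma called 1 of these 31 transcripts in 1 comparison, Arntl, which rose at 1 h of acupuncture from RA_0 by 2.56 ± 0.33 (limma adjusted p 0.0459). limma-voom and edgeR called 0 of all transcripts there, and limma called 0 without either RA_0 library or either AP_1h library, and 1 to 6 without 1 of the others. DESeq2 called Arntl there (adjusted p 1.7e-06), and also against RA_0 at 34 days of acupuncture (7.9e-05) and 1 h of placebo (0.00496). It also called Arntl at 34 days of acupuncture against placebo (0.0179), but not at 34 days of placebo against RA_0 (0.946). At 1 h of acupuncture against RA_0, 3 of the 14 activators and regulators were higher and none lower at an unadjusted p under 0.05. Of the 17 output genes 7 were higher and 2 lower, against 3.62% higher and 5.27% lower of all transcripts. At 1 h of placebo against RA_0, 2 of 14 and 3 of 17 were higher and none and 1 lower, against 1.38% and 1.21% of all transcripts. At 34 days of acupuncture against RA_0, 4 of 14 and 4 of 17 were higher and none and 1 lower, against 2.51% and 2.25% of all transcripts. At 34 days of placebo against RA_0, 2 of 14 and 1 of 17 were higher and none lower, against 2.38% and 0.819% of all transcripts.

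Nfil3, a repressor that competes with Dbp for the D-box, was high in the acupuncture groups, at 102 and 76.5 CPM in AP_1h and 90.8 and 34.7 CPM in AP_34d, against 17.5 to 29.0 CPM in the other 6 libraries. It differed from RA_0 by 2.14 ± 0.45 in AP_1h (limma adjusted p 0.191, DESeq2 adjusted p 0.00308). Ucp3, a mitochondrial carrier of muscle linked to fat use, stood at 36.3 and 103 CPM in RA_0, at 858 and 1008 CPM in AP_1h, at 403 and 399 CPM in PLA_1h, at 1177 and 528 CPM in AP_34d, and at 28.3 and 69.7 CPM in PLA_34d. Its r with Dbp was -0.849, and its F test had an unadjusted p of 2.99e-05 (limma adjusted p 0.0937). DESeq2 gave it an adjusted p of 2.03e-11 over the 5 groups.

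Fkbp5 and Tsc22d3 are known targets of the glucocorticoid receptor. Fkbp5 stood at 21.5 and 21.7 CPM in RA_0, at 239 and 149 CPM in AP_1h, at 108 and 154 CPM in PLA_1h, at 229 and 68.3 CPM in AP_34d, and at 36.9 and 40.9 CPM in PLA_34d, with an r of -0.849 with Dbp. It was thus low in the same 4 libraries in which Dbp was highest. Tsc22d3 stood apart in AP_1h alone, at 864 and 848 CPM against 209 to 397 CPM elsewhere, and its r with Dbp was -0.54. In the F test limma gave an adjusted p of 0.308 for Fkbp5 and 0.377 for Tsc22d3, where DESeq2 gave 2.88e-06 and 2.12e-10.

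Gsk3b, a kinase that acts on several clock proteins, was lowest in AP_1h at 9.95 and 12.03 CPM, against 17.5 to 31.7 CPM in the other 8 libraries. Its unadjusted p in the F test was 0.0486 (limma adjusted p 0.987), and its r with Dbp was 0.10.

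Among all 10252 other transcripts, those most like Dbp over the 10 libraries included Zbtb8a (Pearson r 0.919) and Enoph1 (r 0.887). Those most unlike it were Arntl, Wdr74 (r -0.883) and Gtf2e2 (r -0.866). Zbtb8a did not exceed 4.90 CPM. For Nr1d1 the most alike were Mrgprf (r 0.920), Pcsk6 (r 0.917) and Slc24a3 (r 0.916), and the most unlike Cflar (r -0.856), Ganc (r -0.847) and Slc25a30 (r -0.846). None of these 6 was among those named for Dbp.

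For the mean of the 7 genes, each scaled to the same spread, the highest r included those of Sarm1 (0.893), Cep85 (0.870), Mid1ip1 (0.867) and Tmem175 (0.856). The lowest were those of Cab39 (-0.905), Tmem43 (-0.835), Rergl (-0.828), S100a4 (-0.827) and Chp (-0.822). Such extremes are picked from all these transcripts over 10 libraries that share 5 groups, and they are a description only.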

How the data were processed

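Total RNA of 10 tissue samples was made into polyadenylated libraries and sequenced by the authors. Per the labels and the published methods, reads were trimmed with cutadapt 1.2.1, aligned to rn4 with Bowtie2 2.1.0 and assigned to UCSC transcripts with HTSeq 0.5.4p3 (intersection-nonempty mode, which drops reads that fit several transcripts). The deposited signal is CPM scaled with edgeR 3.4.2 TMM factors by the authors. All deposited values were whole multiples of 1 read (100% within 0.01 reads), so reads could be recovered for the count tests.

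limma 3.58.1 (eBayes with mean trend, R 4.3.3) was fitted on log2(CPM + 1) with 1 mean per group over all 10 libraries, with p-values adjusted over all 10259 transcripts kept, and was checked on simulated data. The alternatives were limma-voom (the study's method), edgeR 4.0.16, DESeq2 1.42.0, other pseudocounts, filters, scalings and fits, and each library left out in turn. Spread between the 2 libraries of a group may be partly technical. Figures were drawn with Python 3.11.15 and matplotlib 3.10.9. The genes and lists were chosen with earlier results of these data known. All members, the other clock genes that passed, the 3 of each list with the smallest F test p, and Arntl are named, with the 5 most and least alike to the mean of the members (3 for Dbp and for Nr1d1), except 1 transcript that is not reported here. The fold changes and p-values of the authors' own comparisons were not used. Coordinates are those of rn4 for transcripts and of GRCr8 for RefSeq windows, counted from 1.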

Additional observations from a re-analysis of the deposited data

How the results depend on the processing

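The number of the 7 genes called was recomputed 262 times over the tests and alternatives, and 4 values differed from limma's 0, each with DESeq2: 2 at 1 h of acupuncture against RA_0 (Nr1d1 and Dbp), 1 at 34 days of acupuncture against RA_0 (Dbp), 1 for the mean of the therapy groups against RA_0 (Dbp) and 2 in the test over the 5 groups. The cause was not tested. Over all transcripts DESeq2 called 166, 33, 20 and 254 there, where limma called 3, 0, 0 and 0. Leaving out each library in turn gave 0 of the 7 in each test. The log2 differences with an unadjusted p under 0.05 kept their sign in all 334 recomputed values. They were picked by that p in these same data, so this is no support for them. Some other differences changed sign. At 1 h of acupuncture against RA_0, Per1 ran from -1.58 to 0.15 and Per2 from -0.41 to 0.19. There Per3 ran from -0.70 to 0.42 and Tef from -0.28 to 0.23, while Cry2 ran from -0.99 to -0.20. The difference of Dbp at 34 days of acupuncture against placebo ran from -2.19 without AP_34d replicate 2 to -0.92 without AP_34d replicate 1. Replicate numbers were only shared numbers: the replicate differences of 2 groups correlated from -0.464 to 0.446, with 4 of 10 above 0.1. With the replicate number as a block 0 of the 7 genes were called in each test, and 0 transcripts at 1 h of acupuncture against RA_0.

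The median of the 7 genes depended on single libraries. Leaving out each in turn gave a range of -0.99 to -0.13 for AP_1h against RA_0, -0.92 to -0.47 for PLA_1h against RA_0, -0.72 to -0.03 for AP_34d against RA_0 and -0.75 to -0.15 for the mean of the therapy groups against RA_0. The sign changed within -0.35 to 0.24 for PLA_34d against RA_0, -0.44 to 0.14 for AP_1h against PLA_1h, -0.71 (without AP_34d replicate 2) to 0.03 (without AP_34d replicate 1) for AP_34d against PLA_34d, and -0.70 (without AP_34d replicate 2) to 0.50 (without AP_34d replicate 1) for AP_34d against AP_1h. The difference between both acupuncture contrasts ran from -1.37 without AP_1h replicate 2 to -0.23 without AP_1h replicate 1, and PLA_34d against PLA_1h from 0.58 to 0.87. Without PLA_34d replicate 2 that group was replicate 1 alone, the library that stood apart. limma then called transcripts in the comparisons of PLA_34d with RA_0, AP_34d and PLA_1h, in the difference of contrasts and in the F test, where it called 0 with all libraries. Nr1d1 had 193 to 357 reads per group and Dbp 1258 to 4601.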

Other observations

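The 2 libraries of each group differed in the same direction for 2 of the genes. Tef was higher in replicate 2 than in replicate 1 in 5 of 5 groups, as were 1.47% of all transcripts, and Nr1d1 was higher in replicate 1 in 5 of 5 groups, as were 2.32%. Their orders were therefore opposite in every group, with a Pearson r of -0.236 over the 10 libraries. Per2 and Cry2 had the same order in 5 of 5 groups. They are the pair with the most such groups among the 21 pairs, and no share over pairs of all transcripts was computed.

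The second Nr1d1 transcript, too low to be tested, stood at a mean of 0.893 CPM in RA_0 (9 reads) and at 0.239 CPM in PLA_34d (4 reads), and at 0.442, 0.473 and 0.373 CPM in AP_1h, PLA_1h and AP_34d. These values leave out reads that fit both Nr1d1 transcripts, which the counting drops, so they are not its full level.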
